A study of Homo sapiens with 4 samples.

Results

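The histone genes of HepG2, a human liver cancer cell line, were followed in 4 sequencing libraries that had been primed on poly(A) tails. The genes were taken by name, as every symbol beginning with HIST1H to HIST4H, H2AF, H3F3 or H1F, which gave 91 of the 24462 gene symbols counted. Of these, 35 had at least 10 reads in a library, as did 13961 of all symbols. They comprised 24 of the 72 replication-dependent genes (symbols beginning with HIST), 10 of the 15 replication-independent genes (the H1F, H2AF and H3F3 symbols) and H2AFX, which was kept apart because its mRNA is known to occur with both kinds of end. The 2 genes whose symbols mark them as pseudogenes and the 1 antisense gene, H1FX-AS1, stayed under 10 reads. HIST2H2BC and HIST2H2BA, which GENCODE also types as pseudogenes, were kept in the replication-dependent class by symbol.

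There was 1 library for each condition, all from HepG2 cells grown in RPMI medium with fetal bovine serum. The DMSO library was the solvent control of the library labelled PD-0332991, an inhibitor of the kinases CDK4 and CDK6. The library labelled SC came from cells given scrambled siRNA and was the control of CDK4-6-KD, from cells given siRNA against both CDK4 and CDK6. Neither dose nor timing of the treatments behind these libraries is given in the sources used here. The question put to these genes was whether the replication-dependent and the replication-independent histones differed between the libraries, in the inhibitor arm and in the siRNA arm.

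Replication-dependent histone mRNAs are made in S phase, when new DNA has to be packed into nucleosomes, and most of them end in a conserved stem-loop in place of a poly(A) tail. The stem-loop is bound by SLBP, and the RNA is cut just past it by a machinery that contains the U7 small nuclear RNP. When this cut is missed or a downstream poly(A) signal is used, as is known in differentiating or resting cells, the same gene gives a polyadenylated mRNA. Replication-independent histone genes are transcribed through the cell cycle, carry introns in most cases, and give polyadenylated mRNA. A library primed with oligo-dT therefore reads the replication-independent genes directly and the replication-dependent genes only through the RNA that carries a run of A.

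The stem-loops of the members on which the results turn are shown first, as the sense strand of the GENCODE 29 transcripts with the stem-loop in capitals and 5 bases on each side. The motif searched was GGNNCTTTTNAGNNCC on the transcript strand, from 20 bases before the end of the coding sequence onward. Across all 19669 protein-coding genes it was found, anywhere in a transcript, in 52 (0.264%).
HIST2H2BE: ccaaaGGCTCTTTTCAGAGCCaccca
HIST2H2AA3: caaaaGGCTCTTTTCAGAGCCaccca
HIST1H2BD: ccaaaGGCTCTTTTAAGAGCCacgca
H2AFX: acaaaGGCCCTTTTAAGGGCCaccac
HIST1H2AI: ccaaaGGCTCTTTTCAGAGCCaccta
HIST1H2BF: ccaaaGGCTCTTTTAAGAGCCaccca
In the first 4 of these genes the annotated transcript ran on past the stem-loop to a poly(A) signal. The signal AATAAA lay 12 bases past the stem-loop in HIST1H2BD, 13 in HIST2H2AA3 and 1705 in HIST2H2BE, and ATTAAA lay 999 bases past it in the longer transcript of H2AFX. In HIST1H2AI and HIST1H2BF no poly(A) signal followed the stem-loop within the annotated transcript. HIST2H2BE and HIST1H2AI carried the same 16 letters in the stem-loop.

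The libraries held between 8983848 and 11176880 counted reads. All 10 hepatocyte lineage genes listed were read in every library, with a summed level of 17390 to 22260 CPM (reads of a gene per 1000000 reads of the scaled library). Markers of other cells were low but not absent. Of 12 keratinocyte markers 6 reached 10 reads, KRT2 and LOR were at 0, and their sum lay between 198.8 and 360.2 CPM, highest in SC. That sum was mostly SFN and KRT10, and single markers went other ways. KRT5 had 2 reads in DMSO, 113 in PD-0332991, 13 in SC and 43 in CDK4-6-KD, KRT14 had 9, 249, 31 and 74, and KRT6A had 9, 150, 37 and 28, so that all 3 keratins were highest in PD-0332991. KRT14 was 26.6-fold higher there than in DMSO (14.5 to 62.0), while SFN stood at 0.468 of DMSO. All 4 fibroblast markers reached 10 reads, with a sum of 8.48 in SC and 76.6 in PD-0332991, and of the 3 lymphocyte markers CD3E was at 0 and the sum stayed under 2.73. CDK4, the knockdown target, was at 353.2 CPM in SC and 71.8 in CDK4-6-KD, and CDK6 at 534.5 and 129.1. MKI67, a marker of cycling cells, stood at 413.0 CPM in DMSO, 31.5 in PD-0332991, 281.2 in SC and 158.0 in CDK4-6-KD. The part of these differences in the histone results was not tested.

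The 2 classes differed in abundance in these libraries. All 10 replication-independent genes that reached 10 reads also reached 100 in some library, and 7 of the 15 had at least 1000 reads in every library. Among the 72 replication-dependent genes, 7 reached 100 reads, only HIST1H4C had at least 1000 in every library, 32 had between 1 and 9 reads at most, and 16 had none at all. A count of 0 allows up to 3 reads in a library, so these 16 genes were not detected, which does not show that they were silent. Several of them, such as HIST1H3A and HIST1H4A, are annotated only to the stop codon. Among genes with at least 10 reads, the annotation ran past it in all 10 replication-independent but 13 of 24 replication-dependent genes. Whether reads past an annotated end were counted is not given in the sources used here. Its part in these counts and in the class difference was not tested. The filter was crossed narrowly by HIST1H2BG, with 12 reads at most, and missed narrowly by HIST2H2BF, with 8. For each 100 reads of replication-independent genes there were 37.0 reads of replication-dependent genes in DMSO, 13.5 in PD-0332991, 26.6 in SC and 21.5 in CDK4-6-KD.

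**Figure D1:**
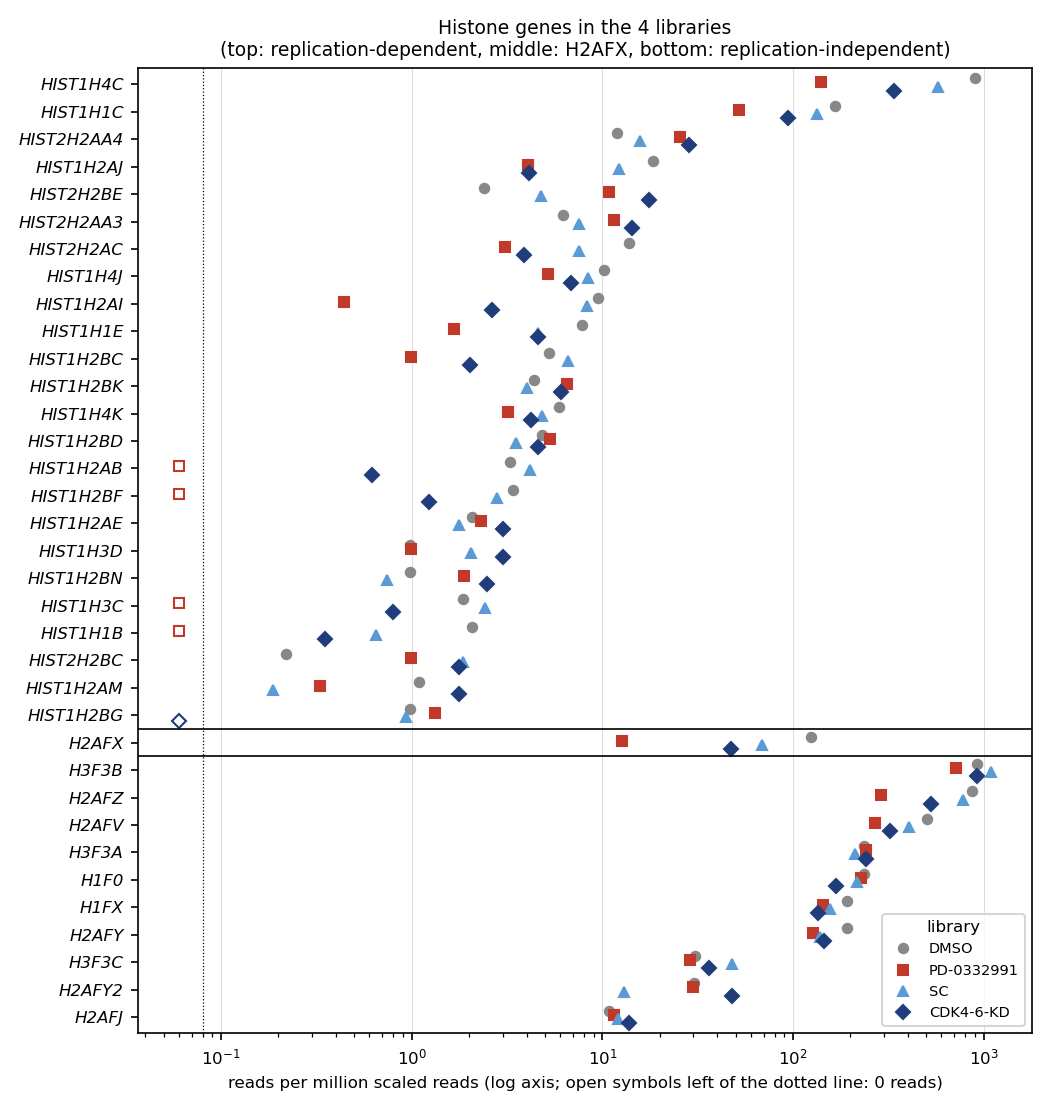
Level of each of the 35 histone genes with at least 10 reads in a library, in CPM on a log axis, with 1 point for each of the 4 libraries (1 library per condition, so no error bars) and open symbols for 0 reads. The replication-dependent genes stand above the upper line, with levels of at most 28.3 CPM apart from HIST1H4C and HIST1H1C, and the replication-independent genes below the lower line lie between 10.8 and 1097.

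The summed level of the replication-dependent genes was lowest in the PD-0332991 library. It was 1189 CPM in DMSO, 282.2 in PD-0332991, 818.7 in SC and 550.3 in CDK4-6-KD, or 0.120%, 0.0284%, 0.0786% and 0.0567% of all reads. The ratio of PD-0332991 to DMSO was 0.237 (95% counting interval 0.227 to 0.248) and that of CDK4-6-KD to SC was 0.672 (0.651 to 0.695). These intervals (exact, Clopper-Pearson) describe how a gene's reads divide between a pair of libraries and so reflect counting error alone. Since a condition had 1 library, there was no replicate error to test against and p-values are not given. The 2 controls were not alike either, since SC stood at 0.688 of DMSO (0.669 to 0.708). In bulk RNA, fewer cells expressing these genes and less RNA per cell cannot be told apart.

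The replication-independent genes summed to 3215 CPM in DMSO, 2086 in PD-0332991, 3080 in SC and 2562 in CDK4-6-KD. Their ratio was 0.649 (0.637 to 0.661) in the inhibitor arm and 0.832 (0.819 to 0.845) in the siRNA arm, in each arm closer to 1 than that of the replication-dependent genes. In the siRNA arm this order rested on a single gene, HIST1H4C, as given next. The intervals carry no variation between cultures.

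Most of the replication-dependent reads came from 1 gene. HIST1H4C, a histone H4 gene of the large cluster on chromosome 6 (chr6:26103876-26104310, plus strand, GRCh38), gave 75.6% of them in DMSO, 49.4% in PD-0332991, 70.2% in SC and 61.6% in CDK4-6-KD. Without it the sums were 290.5, 142.8, 243.7 and 211.3 CPM in the same order, and the ratios were 0.492 (0.460 to 0.526) and 0.867 (0.820 to 0.917). The rest of the class was still below the 0.649 of the replication-independent genes in the inhibitor arm. In the siRNA arm it was not, since its 0.867 lay nearer to 1 than their 0.832 and the intervals overlapped. The annotated transcript of HIST1H4C, which ends 51 bases past the stop codon, held no match to the stem-loop motif. A stem-loop beyond this end would not have been found. The last 20 bases of that transcript contained 18 A, and a 20-base window with as many was present somewhere in the transcripts of 9.97% of protein-coding genes.

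**Figure D2:**
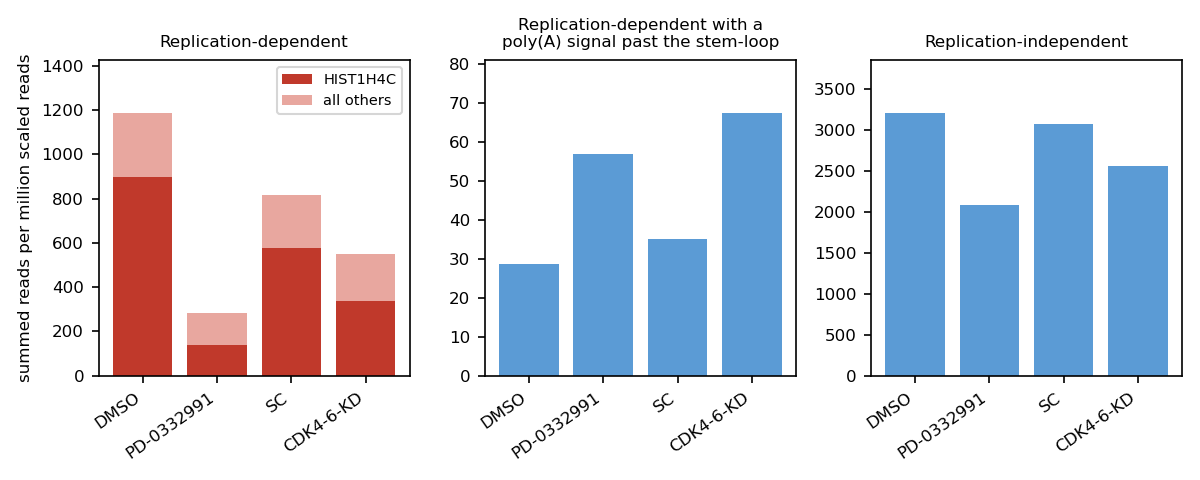
Summed level in CPM for the 72 replication-dependent genes, split into HIST1H4C and all others (left), for the 21 of them with a poly(A) signal annotated past the stem-loop (middle) and for the 15 replication-independent genes (right), in the 4 libraries, with axes that start at 0 and differ in scale. The left bars go from 1189 in DMSO to 282.2 in PD-0332991 while the middle bars go from 28.6 to 57.0.

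In the inhibitor arm, the replication-dependent genes divided into a larger group that was lower and a smaller group that was higher. Of the 24 genes with at least 10 reads, 12 were lower in PD-0332991 than in DMSO by 2-fold or more, 3 were higher by as much and 9 lay between. Over all 13961 genes, 7.38% were lower and 8.29% higher to that extent. The median log2 fold change was -1.26 for the 24 genes, or -1.32 with counts under 3 reads set to 3, against 0.03 for all genes. It was -1.90 without the 4 genes that are near-identical to another in coding sequence (HIST1H4J, HIST1H4K, HIST2H2AA3 and HIST2H2AA4). Fold changes carry a pseudocount of 0.5 reads.

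HIST1H4C was lowest in PD-0332991, with 8236 reads in DMSO, 1261 in PD-0332991, 6168 in SC and 3844 in CDK4-6-KD. This made 0.155 of the DMSO level (0.146 to 0.165). HIST1H1C, a linker histone gene and the next most counted gene of the class, had 1523, 473, 1428 and 1070 reads in the same order of libraries. Its level in PD-0332991 was 0.315 of that in DMSO (0.283 to 0.349). HIST1H1E, another linker histone gene, had 72, 15, 49 and 52 reads, and the PD-0332991 library again was the lowest, at 0.217 of DMSO (0.112 to 0.372).

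Canonical H2A genes of the chromosome 6 cluster showed some of the largest differences. HIST1H2AI had 87 reads in DMSO and 4 in PD-0332991, or 0.0521 of the DMSO level (0.0124 to 0.124), beside 89 in SC and 30 in CDK4-6-KD. HIST1H2AJ had 168, 37, 131 and 47 reads, with a ratio of 0.226 (0.152 to 0.320). HIST1H2AB had 30 reads in DMSO, none in PD-0332991, 45 in SC and 7 in CDK4-6-KD. It was 9.87-fold lower in PD-0332991 with the 0 taken as 3 reads, and its counting interval reached up to 0.133 of DMSO. In each of these genes both controls lay above both of the libraries with CDK4 and CDK6 inhibited or depleted. HIST1H2AM, with 10, 3, 2 and 20 reads, did not follow them, and its ratio of 0.337 in the inhibitor arm had an interval from 0.0538 to 1.18.

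Of the 24 genes, the others with no read in PD-0332991 were HIST1H2BF, HIST1H3C and HIST1H1B. HIST1H2BF, an H2B gene, had 31 reads in DMSO, 30 in SC and 14 in CDK4-6-KD. With its 0 taken as 3 reads it was 10.2-fold lower in PD-0332991 (interval up to 0.128 of DMSO). HIST1H3C, an H3 gene, had 17, 0, 26 and 9 reads and was 5.59-fold lower on the same footing (up to 0.246). HIST1H1B, a linker histone gene, had 19, 0, 7 and 4 reads and was likewise 6.25-fold lower (up to 0.217). In all 3 genes the DMSO library held at least 17 reads, above the 3 reads that a count of 0 allows. HIST1H2BC, another H2B gene, had 48, 9, 71 and 23 reads, with a ratio of 0.198 (0.0820 to 0.392).

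**Figure D3:**
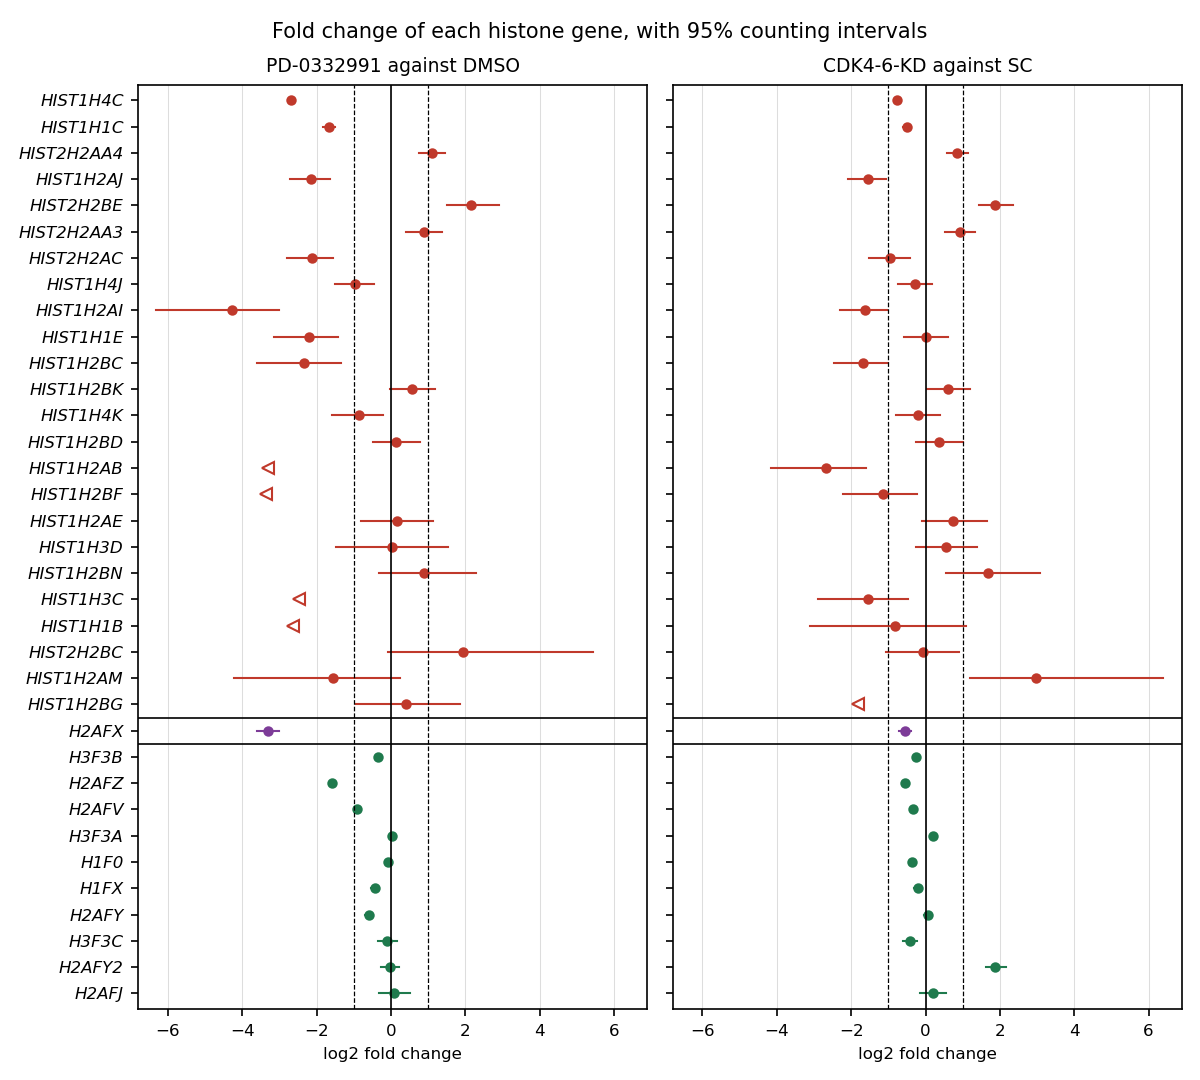
Log2 fold change of each histone gene with its 95% counting interval, for PD-0332991 against DMSO (left) and CDK4-6-KD against SC (right). Points are the fitted values, open triangles are the change with a 0 taken as 3 reads, the dashed lines mark 2-fold, and replication-dependent genes are red, H2AFX purple and replication-independent genes green. HIST2H2BE, HIST2H2AA3 and HIST2H2AA4 lie right of 0 in both panels while HIST1H4C, HIST1H1C, HIST1H2AB, HIST1H2AI, HIST1H2AJ and HIST2H2AC lie left of 0 in both.

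The genes that stood higher were mostly of the small cluster on chromosome 1. HIST2H2BE, an H2B gene known for a long polyadenylated form, had 22 reads in DMSO, 98 in PD-0332991, 51 in SC and 198 in CDK4-6-KD. It was 4.44-fold higher in PD-0332991 than in DMSO (2.82 to 7.53), although SC also exceeded DMSO, by 1.96-fold (1.18 to 3.43). HIST2H2AA3 and HIST2H2AA4 have identical coding sequences, so that reads may be split between them, and their reads were added up. The pair had 166 reads in DMSO, 335 in PD-0332991, 249 in SC and 484 in CDK4-6-KD, which is 2.05-fold higher in PD-0332991 (1.69 to 2.48). HIST2H2BC, the third gene past 2-fold and a pseudogene by GENCODE, rested on 9 reads against 2, with a ratio of 3.85 and an interval from 0.944 to 43.4, and without it 2 of 23 genes were higher and the median was -1.57.

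The siRNA arm had fewer of these genes past 2-fold, and the most counted of them lay nearer to their control. Of the 24 replication-dependent genes, 7 stood in CDK4-6-KD at 0.5 of SC or less, 3 were at least 2-fold above it and 14 lay between, where 7.79% of all genes were lower and 9.87% higher by as much. The median log2 fold change was -0.24, or -0.63 without the near-identical genes, against 0.00 for all genes. HIST1H4C stood at 0.590 of SC (0.566 to 0.614) and HIST1H1C at 0.709 (0.654 to 0.768), both short of 2-fold. HIST1H1E was at 1.00 (0.667 to 1.52), so that a difference in this gene was not detectable at this depth.

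Of the 12 genes at least 2-fold lower in PD-0332991, 6 were so in CDK4-6-KD. HIST1H2AB stood at 0.156 of SC (0.0560 to 0.329), HIST1H2BC at 0.311 (0.183 to 0.497), HIST1H2AI at 0.323 (0.204 to 0.487) and HIST1H2AJ at 0.342 (0.238 to 0.477). For HIST1H3C the ratio was 0.340 (0.135 to 0.721) and for HIST1H2BF 0.451 (0.216 to 0.859). The arms share no library. Of all 13961 genes, 1030 were at least 2-fold lower in PD-0332991, and 239 of these (1.71% of all genes) were so in both arms. HIST1H2AM, lower in the inhibitor arm, was higher here. The remaining gene at least 2-fold lower in the siRNA arm was HIST1H2BG, with 9, 12, 10 and 0 reads. It was 3.52-fold lower in CDK4-6-KD with the 0 taken as 3 reads (interval up to 0.422 of SC). In the inhibitor arm its ratio was 1.33 (0.523 to 3.63).

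HIST2H2BE was the only 1 of the 24 genes at least 2-fold higher in both arms, as 2.59% of all genes were, at 3.65-fold in CDK4-6-KD over SC (2.69 to 5.10). HIST2H2AA3 and HIST2H2AA4 together were 1.84-fold higher (1.58 to 2.15). HIST1H2AM was 7.81-fold higher on 20 reads against 2, with an interval from 2.30 to 83.5, and HIST1H2BN, an H2B gene, 3.18-fold (1.47 to 8.41) on 28 reads against 8. Across the 24 genes, 12 were lower in both arms and 8 higher in both, counting differences of any size, where 27.9% of all genes were lower and 30.7% higher in both.

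Between the controls few genes of the class were past 2-fold. In SC against DMSO, 2 of the 24 genes (8.33%) were higher by 2-fold or more and 2 (8.33%) lower by as much. These shares were near the 5.92% and 7.74% of all genes. The median log2 fold change was -0.25, against 0.0008 for all genes. The genes past 2-fold were HIST2H2BC and HIST1H3D on the higher side and HIST1H2AM and HIST1H1B on the lower side, none with over 22 reads in either control. HIST1H4C in SC was 0.640 of that in DMSO (0.619 to 0.661), a step close to the 0.590 seen between CDK4-6-KD and SC.

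Grouped by the annotated end of their transcripts, no replication-dependent gene with a poly(A) signal past the stem-loop was at least 2-fold lower. In the inhibitor arm 9 of the 12 lower genes had no annotated stem-loop, so a signal past it could not be looked for in them. In 5 of the 24 genes, HIST1H2BD, HIST2H2AA3, HIST2H2AA4, HIST2H2BC and HIST2H2BE, an annotated transcript held AATAAA or ATTAAA past the stem-loop. For HIST2H2BC the signal stood in a noncoding transcript. In the inhibitor arm 3 of these 5 were at least 2-fold higher and none at least 2-fold lower, with a median log2 fold change of 1.10, and in the siRNA arm 1 was higher and none lower, with a median of 0.85. In 7 genes the stem-loop was annotated with no signal after it. Of these 3 were at least 2-fold lower and none higher in the inhibitor arm, with a median of -0.96, and 4 were lower and 1 higher in the siRNA arm, with a median of -1.15. In HIST1H2BC, HIST1H2BN and HIST1H4J, which are among them, an annotated transcript held a poly(A) signal after the stop codon. HIST1H2BC was at least 2-fold lower in both arms, HIST1H2BN at least 2-fold higher in the siRNA arm, and HIST1H4J past 2-fold in neither arm. The last 12 genes had no stem-loop in their annotated transcript, which in 10 of them is annotated only to the stop codon, so that the missing motif is there a limit of the annotation. In HIST1H1E and HIST1H4C the transcript ends 57 and 51 bases past the stop codon, and a stem-loop beyond that would not have been found. Among these 12 genes 9 were at least 2-fold lower and none higher in the inhibitor arm, with a median of -2.14, and 3 were lower and 1 higher in the siRNA arm, with a median of -0.63. Over all genes 7.38% were at least 2-fold lower and 8.29% higher in the inhibitor arm, and 7.79% and 9.87% in the siRNA arm. In groups this small, a count of 1 gene is not set apart from these shares.

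Summed over all 21 replication-dependent genes with such a signal, whatever their reads, the level was 28.6 CPM in DMSO, 57.0 in PD-0332991, 35.1 in SC and 67.5 in CDK4-6-KD. The ratios were 1.99 (1.71 to 2.32) and 1.92 (1.70 to 2.18), while SC to DMSO gave 1.23 (1.05 to 1.45). These genes made 2.40% of the replication-dependent reads in DMSO, 20.2% in PD-0332991, 4.29% in SC and 12.3% in CDK4-6-KD. H2AFX, annotated in the same way but kept apart, is not in this group. It had 124.3 CPM in DMSO, 12.6 in PD-0332991, 68.8 in SC and 47.1 in CDK4-6-KD. Its level in DMSO was above that of the whole group, so the ratios of 1.99 and 1.92 are for the group without it. The group is small, 4 of its 5 genes above 10 reads belong to the HIST2 cluster, and HIST2H2AA3 and HIST2H2AA4 share their sequence, so that the annotated end and the cluster cannot be told apart. HIST1H2BD, the only one of the 5 in the HIST1 cluster, had 44, 48, 38 and 52 reads, with ratios of 1.10 (0.719 to 1.70) and 1.29 (0.836 to 2.02) whose intervals included 1.

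**Figure D4:**
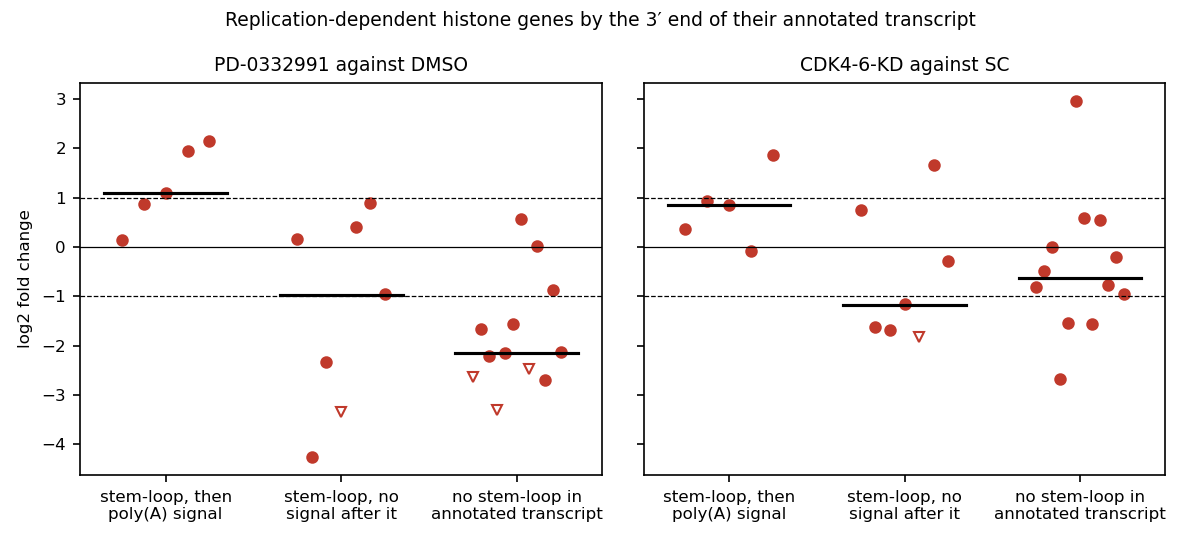
Log2 fold change of the 24 replication-dependent genes, grouped by the end of their annotated transcript, for PD-0332991 against DMSO (left) and CDK4-6-KD against SC (right). Each point is a gene, open triangles are the change with a 0 in the treated library taken as 3 reads, bars are medians with counts under 3 reads set to 3, and dashed lines mark 2-fold. The genes with a poly(A) signal past the stem-loop have no point below -1 in either panel, where H2AFX is not shown.

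The same genes were also grouped by cluster. The HIST1 cluster on chromosome 6 had 19 genes above the filter, of which 11 were at least 2-fold lower and none higher in the inhibitor arm, and its sum, which includes HIST1H4C, was 0.198 of DMSO (0.189 to 0.208) and, in the siRNA arm, 0.620 of SC (0.599 to 0.642). The HIST2 cluster on chromosome 1 had 5 such genes, of which 3 were higher and 1 lower in the inhibitor arm, and its sum was 1.47-fold (1.28 to 1.70) and 1.72-fold (1.52 to 1.94). The lower gene was HIST2H2AC. Over all genes 7.38% were at least 2-fold lower and 8.29% higher in the inhibitor arm.

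Among the protein types, the summed H4 genes stood at 0.163 of DMSO, H3 at 0.253, H1 at 0.308, H2A at 0.706 and H2B at 1.22 in PD-0332991. In CDK4-6-KD the sums were 0.596 of SC for H4, 0.719 for H1, 0.766 for H3, 1.02 for H2A and 1.30 for H2B, where the intervals of H3 (0.519 to 1.13) and H2A (0.911 to 1.14) included 1. Single genes carried several of these sums. Without HIST1H4C the other H4 genes stood at 0.586 of DMSO (0.446 to 0.765) and 0.873 of SC (0.683 to 1.12). Without HIST2H2BE the H2B sum turned to the lower side, at 0.850 (0.687 to 1.05) and 0.817 (0.677 to 0.984). Without HIST2H2AA3 and HIST2H2AA4 the H2A sum was at 0.223 (0.178 to 0.277) and 0.473 (0.395 to 0.565), and without HIST1H1C the H1 sum was at 0.192 (0.109 to 0.320) and 0.979 (0.669 to 1.44).

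HIST2H2AC and HIST2H2BE moved apart although they lie head to head. HIST2H2AC, an H2A gene at chr1:149886975-149887364 on the plus strand, begins 322 bases from HIST2H2BE at chr1:149884459-149886652 on the minus strand (GRCh38, GENCODE 29). HIST2H2AC had 126 reads in DMSO, 28 in PD-0332991, 81 in SC and 44 in CDK4-6-KD, against 22, 98, 51 and 198 for HIST2H2BE. HIST2H2AC was thus at 0.228 of DMSO (0.144 to 0.341) and 0.517 of SC (0.348 to 0.751), while its neighbour was 4.44-fold and 3.65-fold higher. The annotated transcript of HIST2H2AC ends at the stop codon and that of HIST2H2BE runs past the stem-loop to a poly(A) signal. Of 13 head-to-head pairs of replication-dependent genes with starts within 1000 bases, 3 had both genes above 10 reads. The others were HIST2H2BC with HIST2H2AA4, both higher in PD-0332991, and HIST1H2BG with HIST1H2AE. HIST1H2AE had 19, 21, 19 and 34 reads, and its ratios of 1.12 (0.573 to 2.20) and 1.68 (0.939 to 3.14) had intervals that included 1.

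The shared region is shown because it serves both genes. It is the RefSeq promoter window of HIST2H2BE, from 250 bases before to 50 after its start, at chr1:149886633-149886932 on the minus strand of GRCh38.p14, and capitals mark the CCAAT box, the TATA box (searched as TATAAA) and the octamer (searched as ATTTGCAT) on either strand.
HIST2H2BE: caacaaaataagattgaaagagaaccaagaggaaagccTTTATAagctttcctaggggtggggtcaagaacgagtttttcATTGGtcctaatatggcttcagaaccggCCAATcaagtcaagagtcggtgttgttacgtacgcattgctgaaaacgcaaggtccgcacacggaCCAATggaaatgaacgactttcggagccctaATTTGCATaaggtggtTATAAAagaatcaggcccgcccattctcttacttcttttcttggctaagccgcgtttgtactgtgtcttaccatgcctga
It held 3 CCAAT boxes, an octamer, and a TATA box toward each gene. Among the 24 replication-dependent genes above the filter, 19 had a promoter in the table, and 17 of these held CCAAT, 15 held TATAAA and 7 held the octamer, which is known from H2B promoters as a site for OCT1. The octamer was found in 5 of 8 H2A, 2 of 4 H2B and none of the 7 other promoters. Over all 35116 promoters in the table, 34.6% held CCAAT, 11.5% TATAAA and 1.77% the octamer. None of these words contains another, and a match does not show that a factor was bound. HIST1H4C had no entry.

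The remaining replication-dependent genes above the filter had few reads and small differences. HIST1H4J and HIST1H4K, H4 genes of identical coding sequence, had 93, 47, 90 and 78 reads and 54, 29, 52 and 48 reads, with PD-0332991 the lowest library for both. Their ratios were 0.515 (0.353 to 0.735) and 0.549 (0.334 to 0.870) in the inhibitor arm, and 0.821 and 0.875 in the siRNA arm with intervals that included 1. HIST1H2BK, an H2B gene, had 40, 59, 43 and 69 reads, with ratios of 1.49 (0.984 to 2.29) and 1.51 (1.02 to 2.28), of which the first interval included 1. HIST1H3D had 9, 9, 22 and 34 reads, with both intervals including 1.

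H2AFX, which encodes the variant whose phosphorylated form marks DNA breaks, had the lowest ratio in the inhibitor arm of all members with 100 or more reads in a library. It had 1139 reads in DMSO, 114 in PD-0332991, 738 in SC and 534 in CDK4-6-KD. The PD-0332991 library held 0.102 of the DMSO level (0.0829 to 0.123) and CDK4-6-KD 0.685 of the SC level (0.611 to 0.766), while SC held 0.554 of DMSO (0.504 to 0.608). Its transcript was annotated with both a stem-loop and, past it, a poly(A) signal, as in HIST2H2BE, and yet it was lower where HIST2H2BE was higher.

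In the inhibitor arm the replication-independent genes had a median closer to 0 than the replication-dependent genes, and in the siRNA arm the medians of the classes were alike. Of the 10 above the filter, 1 (10%) was at least 2-fold lower and none higher in the inhibitor arm, where 7.38% and 8.29% of all genes were. In the siRNA arm 1 (10%) was higher and none lower, where 9.87% and 7.79% of all genes were. With 10 genes these counts were near the shares of all genes. Their median log2 fold change was -0.23 in each arm, beside -1.26 and -0.24 for the replication-dependent genes. H2AFZ, a gene of H2A.Z, had 7912 reads in DMSO, 2618 in PD-0332991, 8358 in SC and 5974 in CDK4-6-KD. It was at 0.335 of DMSO (0.321 to 0.351) and 0.676 of SC (0.654 to 0.699), and both ratios were the lowest of the class. H2AFV, the other H2A.Z gene, had 4609, 2424, 4368 and 3656 reads, with ratios of 0.533 (0.507 to 0.560) and 0.792 (0.758 to 0.828). Both genes were lowest in PD-0332991, and in neither arm did the intervals of H2AFZ and H2AFV overlap.

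The ratios of the 3 genes for replacement H3 lay between 0.750 and 1.14. H3F3A had 2161, 2192, 2266 and 2737 reads, at 1.03 of DMSO (0.968 to 1.09) and 1.14 of SC (1.08 to 1.21). H3F3B, which encodes the same protein had 8432, 6495, 11773 and 10477 reads, with ratios of 0.781 (0.756 to 0.806) and 0.842 (0.820 to 0.865). H3F3C, a retrocopy of H3F3B, had 281, 259, 516 and 409 reads, between 3.33% and 4.38% of the H3F3B reads in the same library. The transcripts of both are 96.1% identical over 1064 aligned columns, and reads of H3F3B may have been counted on H3F3C, so its values are uncertain.

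Linker histone genes of this class had higher ratios than the replication-dependent H1 genes in the inhibitor arm. In the siRNA arm only H1FX had an interval above that of HIST1H1C, and neither gene stood clear of HIST1H1E. H1F0, known from differentiated and resting cells, had 2170, 2046, 2328 and 1912 reads, with ratios of 0.956 (0.899 to 1.02) and 0.777 (0.731 to 0.826). H1FX had 1758, 1298, 1669 and 1525 reads, with ratios of 0.748 (0.696 to 0.804) and 0.865 (0.806 to 0.927). Its antisense gene H1FX-AS1 had 7 reads at most, and whether the counting used strand is not given in the sources used here. In PD-0332991 the intervals of both genes lay above those of HIST1H1C and HIST1H1E. In CDK4-6-KD the interval of H1F0 overlapped that of HIST1H1C, at 0.709 (0.654 to 0.768), while that of H1FX lay above it. The interval of HIST1H1E (0.667 to 1.52) held the ratios of both genes. HIST1H1B was at 0.571 (0.116 to 2.13) on 4 reads against 7.

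The macroH2A genes, whose proteins carry a large extra domain and are known from silent chromatin, differed from each other. H2AFY had 1758 reads in DMSO, 1155 in PD-0332991, 1491 in SC and 1658 in CDK4-6-KD, with ratios of 0.666 (0.618 to 0.718) and 1.05 (0.981 to 1.13). H2AFY2 had 278, 269, 139 and 543 reads and was the only replication-independent gene past 2-fold in the siRNA arm, at 3.69-fold (3.06 to 4.49). In the inhibitor arm it was at 0.981 (0.826 to 1.16). The SC library was the lowest of the 4 for this gene, at 0.428 of DMSO (0.346 to 0.526), and against DMSO the log2 fold change of CDK4-6-KD was 0.66 in place of 1.88. H2AFJ, an H2A variant, had 99, 104, 129 and 157 reads, and both intervals included 1, at 1.06 (0.801 to 1.42) and 1.15 (0.907 to 1.47).

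Reads of these libraries come from the 3′ end of a transcript, so levels were not divided by gene length, and on this scale of CPM the order of the most counted genes differed between libraries. In DMSO H3F3B (920.1 CPM), HIST1H4C (898.7) and H2AFZ (863.4) lay close together. In PD-0332991 H3F3B stood first at 718.3, H2AFZ had 289.5, H2AFV 268.1, H3F3A 242.4, H1F0 226.3, H1FX 143.6 and HIST1H4C 139.5. In SC the first 3 were H3F3B (1097), H2AFZ (779.1) and HIST1H4C (575.0), and in CDK4-6-KD H3F3B (924.1), H2AFZ (526.9) and HIST1H4C (339.1).

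The promoters of the 2 variant genes with the lowest ratios in PD-0332991 are shown for comparison with that of HIST2H2BE, with the CCAAT box, the TATA box and the cell cycle homology region (searched as TTTGAA) in capitals on either strand. They are the RefSeq windows at chr11:119095416-119095715 and chr4:99950226-99950525, both on the minus strand of GRCh38.p14.
H2AFX: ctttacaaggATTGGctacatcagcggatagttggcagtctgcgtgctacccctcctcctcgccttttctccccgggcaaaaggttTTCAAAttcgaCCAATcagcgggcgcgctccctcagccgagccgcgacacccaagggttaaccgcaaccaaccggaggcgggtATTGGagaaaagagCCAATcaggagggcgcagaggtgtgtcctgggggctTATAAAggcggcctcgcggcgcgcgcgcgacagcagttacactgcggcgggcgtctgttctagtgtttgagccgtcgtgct
H2AFZ: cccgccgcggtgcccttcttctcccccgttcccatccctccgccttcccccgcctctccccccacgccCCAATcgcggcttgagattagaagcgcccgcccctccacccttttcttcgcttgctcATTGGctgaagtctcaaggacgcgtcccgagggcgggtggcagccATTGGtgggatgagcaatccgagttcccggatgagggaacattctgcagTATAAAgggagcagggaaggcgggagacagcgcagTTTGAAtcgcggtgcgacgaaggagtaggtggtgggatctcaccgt
Both held TTTGAA, as did 7 of the 19 replication-dependent promoters and 15.2% of all promoters, while the HIST2H2BE window did not. Among the 8 replication-independent promoters in the table, H2AFZ was the only one with TTTGAA, and 6 held CCAAT and 3 TATAAA. H1F0 and H3F3C had no entry.

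The genes that process, degrade and place histones differed in the PD-0332991 library from list to list. From lists of genes of histone mRNA 3′ end processing, histone mRNA decay and chaperones of replication-coupled and variant histones, 73 of 74 reached 10 reads. Of these 16 were at least 2-fold lower and none higher in the inhibitor arm, with a median log2 fold change of -0.37, and 7 were lower and none higher in the siRNA arm, with a median of -0.31. The share at least 2-fold lower over all genes was 7.38% and 7.79%, as above. Their interval in the inhibitor arm lay below 1 for 49 genes, included 1 for 19 and lay above 1 for 5.

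SLBP, the stem-loop binding protein, had 539 reads in DMSO, 131 in PD-0332991, 399 in SC and 299 in CDK4-6-KD, with ratios of 0.247 (0.202 to 0.299) and 0.709 (0.608 to 0.826). The 28 genes of 3′ end processing are broader than the stem-loop machinery, since they include genes of general poly(A) cleavage. Of the 28, 2 (7.14%) were at least 2-fold lower in each arm, a share near that of all genes. In the inhibitor arm the other was CASP8AP2, which acts with NPAT at histone genes, at 0.427 (0.364 to 0.498). NPAT, the coactivator of histone genes, stood at 0.651 (0.540 to 0.781) and 0.790 (0.683 to 0.914). In the siRNA arm the 2 were different genes of the U7 machinery, LSM11 at 0.278 (0.191 to 0.392) and ZNF473 at 0.456 (0.337 to 0.606), whose ratios in the inhibitor arm were 0.557 and 0.713. The processing genes as a list had medians of -0.40 and -0.25. Of the 8 decay genes only ERI1, an exonuclease that binds the stem-loop, was past 2-fold, at 0.407 (0.300 to 0.543) in the inhibitor arm, and the list had medians of -0.05 and -0.20.

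Chaperones of replication-coupled histones had 7 of 17 genes (41.2%) at least 2-fold lower in the inhibitor arm and 2 (11.8%) in the siRNA arm. Over all genes the shares were 7.38% and 7.79%. The medians of this list were -0.57 and -0.34. CHAF1A, the large subunit of chromatin assembly factor 1, had 693, 104, 516 and 310 reads, with ratios of 0.153 (0.123 to 0.187) and 0.569 (0.492 to 0.656), and CHAF1B stood at 0.354 and 0.471. The H3-H4 chaperone ASF1B was at 0.172 (0.138 to 0.211) and 0.735 (0.643 to 0.839), whereas its paralog ASF1A was at 0.675 (0.556 to 0.816) and 0.954 (0.821 to 1.11). NASP, which holds the soluble pool of H3 and H4, was at 0.411 and 0.532. MCM2, a helicase subunit that binds H3 and H4, was at 0.143 and 0.635, HAT1, which acetylates new H4, at 0.274 and 0.790, and MMS22L at 0.0952 and 0.947. IPO4, a nuclear importer of H3 and H4, stood at 0.798 (0.717 to 0.888) in the inhibitor arm and at 0.479 in the siRNA arm.

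The list of chaperones of variant histones, which also holds the histone gene CENPA, had 6 of 20 genes (30%) at least 2-fold lower in the inhibitor arm. In the siRNA arm it had 3 (15%). Over all genes the shares were 7.38% and 7.79%. The medians of the list were -0.15 and -0.36. The 6 included 4 genes of the centromeric H3 pathway. CENPA, the centromeric H3 itself, had 273, 15, 144 and 124 reads, with ratios of 0.0574 (0.0307 to 0.0935) and 0.815 (0.636 to 1.04), and its chaperone HJURP stood at 0.105 (0.0807 to 0.133) and 0.436 (0.376 to 0.504). OIP5 and MIS18A, of the complex that licenses CENPA loading, were at 0.113 and 0.280 in the inhibitor arm and at 0.721 and 0.621 in the siRNA arm. The other 2 bear on H2A.Z, ANP32E, which removes it from nucleosomes, at 0.289 and 0.721, and ACTL6A, a subunit of complexes that exchange it, at 0.485 and 0.971. HIRA and UBN1, which place replacement H3, were at 0.945 (0.671 to 1.33) and 0.866 (0.813 to 0.922) in the inhibitor arm and, in the siRNA arm, at 0.385 (0.258 to 0.557) and 0.470 (0.441 to 0.501). DAXX, another chaperone of replacement H3, was at 0.691 and 0.862.

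**Figure D5:**
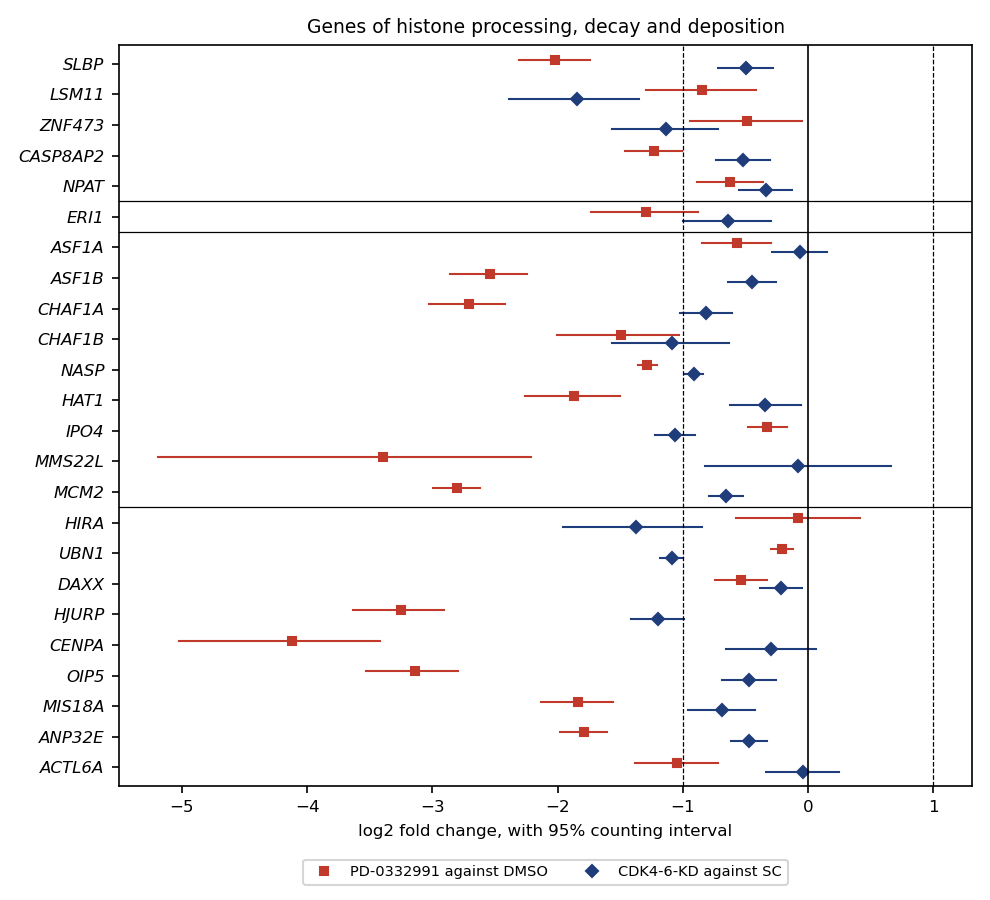
Log2 fold change with 95% counting interval of the named genes of histone mRNA processing, decay and histone deposition, in red for PD-0332991 against DMSO and in blue for CDK4-6-KD against SC, with lines between the lists and dashed lines at 2-fold. CENPA, MMS22L and HJURP reach furthest left in the inhibitor arm, and LSM11, HIRA, ZNF473, IPO4 and UBN1 are the genes whose blue point lies left of the red point.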

How the data were processed

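The authors prepared QuantSeq 3′ mRNA libraries from 500 ng of total RNA with an oligo-dT primer, sequenced them as single-end 75 reads on a NextSeq 500, and deposited a table of counts for each library, whole numbers of reads per gene symbol that were neither normalized nor pooled. The submitters' processing notes name Bowtie2, edgeR and the build hg19. The counter, the annotation and the strand setting are not given in the sources used here.

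From these counts, members were found by symbol, and repeated symbols (286 over all genes, 0 members) were summed. Library sizes were scaled with TMM factors of edgeR 4.0.16 in R 4.3.3 (0.960 to 1.03). A pseudocount of 0.5 reads entered every fold change, taken for genes with 10 or more reads in any library, and a change of 2-fold was counted. With 1 library per condition no count model could be fitted, so 95% Clopper-Pearson intervals (scipy 1.17.1) stand in for a test and cover counting error only, since PCR copies were not marked. No fold is given where both libraries had 3 reads or fewer. For genes with a 0 in 1 library the fold was also taken with the 0 set to 3 reads, which leaves out counting error in the other library. The code for folds and intervals was tested on simulated data.

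Named members had 100 or more reads in a library, or an interval wholly past 2-fold in an arm. HIST1H2BD, HIST1H2BK, HIST1H2BN, HIST1H2AE, HIST1H3D, HIST1H4J, HIST1H4K, HIST2H2BC, HIST2H2BF and the keratinocyte markers were named after their values were seen. Of the supply lists, 12 genes were always named and others where at least 2-fold with the interval past 1.5-fold. An item of the supply lists is not reported here and was left out of their counts. Members and lists were chosen with earlier results of these data known. Stem-loops, poly(A) signals, A-rich windows, coding identity of at least 98% and positions came from GENCODE 29 (GRCh38), a build other than that of the counts, and promoters from the RefSeq table (GRCh38.p14). Groups were taken from the sample labels. Alternatives were DESeq2 1.42.0 size factors, total counts, the control of the other arm, filters, pseudocounts, thresholds, the class of H2AFX and near-identical genes. Leaving out HIST1H4C, HIST2H2BC or the leading gene of a protein type, looking for the signal after the stop codon, and the A-rich and head-to-head descriptions were added after the data were examined.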

Additional observations from a re-analysis of the deposited data

How the results depend on the processing

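No paired analysis was possible because each condition had 1 library and the labels carry no replicate numbers, and leaving out a library left nothing to compare. Of 98 summary values recomputed, 80 stayed within counting error or, for counts, within 1.5 times. Of 215 recomputed log2 fold changes of named members, none of those past 2-fold changed sign and 42 left their counting interval, 34 of them with the control of the other arm. With that control the log2 ratio of the summed replication-dependent reads was -1.54 in the inhibitor arm (-2.08 with its own control) and -1.11 in the siRNA arm (-0.57), that of the replication-independent reads -0.56 (-0.62) and -0.33 (-0.27), the replication-independent median in the inhibitor arm -0.12 (-0.23), and 6 genes in place of 3 were at least 2-fold higher in the siRNA arm. Total counts alone gave, in the siRNA arm, -0.47 for the replication-dependent sum, -0.16 for the replication-independent sum and -0.13 for its median. Without HIST1H4C the sums were -1.02 and -0.21, which in the siRNA arm is nearer to 0 than the replication-independent sum. Without the near-identical genes the replication-dependent medians were -1.90 and -0.63 (-1.26 and -0.24 before). With H2AFX the replication-independent median in the inhibitor arm was -0.36. A filter of 50 reads left fewer genes, with 7 lower in the inhibitor arm (12 before) and, in the siRNA arm, 3 lower (7) and 1 higher (3). At 1.5-fold, 5 and 7 genes were higher in the 2 arms (3 and 3), and with the whole interval past 2-fold 1 was higher in the inhibitor arm. Where the poly(A) signal was looked for after the stop codon, the medians of the 7 genes with it were 0.88 and 0.85, and 1 of them, HIST1H2BC, was at least 2-fold lower in both arms. Genes under about 20 reads have intervals wider than 2-fold, as do some with more. HIST1H4J, with 93 reads in DMSO and 47 in PD-0332991, had an interval from 0.353 to 0.735. The 4 libraries hold no estimate of variation between cultures. The causes of these changes were not tested.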
